A study of Arabidopsis thaliana with 4 samples.

Results

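The response of wild-type Arabidopsis thaliana hypocotyls to the synthetic auxin naphthalene acetic acid (NAA) was described from 2 of the 4 RNA-seq libraries of the study, those titled as Col hypocotyl with NAA and as Col hypocotyl mock. The hypocotyl is the embryonic stem, and it was taken from etiolated (dark-grown) seedlings at 4 days. The Col-0 seedlings had grown in the dark either on medium with 500 nM NAA or on medium without it (mock). The other 2 libraries came from hypocotyls of the arf7 T-DNA mutant, of the same age and also grown in the dark with or without 500 nM NAA, and their values are set beside those of Col-0. Each of the 4 groups was 1 library, so no difference had a replicate check and no p-value is given. ARF7 (AT5G20730), the gene named by the mutant, had 8 and 8 counts in the Col-0 mock and NAA libraries and 3 and 1 in those of arf7, too few to check the labels.

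Auxin is sensed by TIR1/AFB F-box proteins, which bind it together with Aux/IAA repressors and mark these for degradation. ARF transcription factors, ARF7 among them, are thereby released and activate genes with auxin response elements in their promoters. The Aux/IAA, GH3 and SAUR families are the classical early targets, and in hypocotyls auxin is best known as a regulator of cell elongation through the cell wall.

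Reads were summed per locus and scaled to a common library total (CPM). The 4 totals lay between 7.0e+06 and 7.4e+06 reads. A locus was compared where its mean over the 4 libraries was at least 1 CPM, which 17317 of the 23695 loci with a read met. A locus was called higher or lower with NAA where its fold was at least 2 and the exact 95% counting interval of the ratio excluded 1. Intervals are given in parentheses after a fold, and they cover counting error only, not the spread between plants. A locus could reach the minimum through the NAA library alone: 463 of the loci called higher had a mean under 1 CPM in the other 3 libraries, and 40 of those called lower had one under 1 CPM outside Col-0 mock.

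The Col-0 NAA library stood apart from the other 3, and every value below rests on it. Its Spearman correlation with the others across loci was between 0.847 and 0.881, while among the other 3 it was between 0.968 and 0.981. It had 12 loci of at least 5 CPM that had no read in any other library, and 6 loci at 0 that had at least 5 CPM in each of the others. Neither kind of locus was found for any of the other 3 libraries. UMAMIT36, of a transporter family of amino acids, had 529 counts there and 0 in the other 3, and the lipid-transfer-like gene AT4G22505 had 0 there against 494, 610 and 466 counts. Whether treatment, plant material or library preparation set that library apart cannot be told apart with 1 library a group.

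Promoters of auxin genes that were higher with NAA are shown because their auxin response elements are the textbook link between auxin and these genes. Each stretch is the 250 bases before the start of the listed gene model, read 5′ to 3′ on the strand of the gene from the RefSeq TAIR10.1 genome, and capitals mark TGTCTC or its reverse complement. Only genes called higher that held TGTCTC or the related TGTCGG there were candidates, so finding an element in them is not a result. IAA19 (chr3:5263774-5264023, plus strand) encodes an Aux/IAA repressor of hypocotyl growth responses and held 3 copies, while the other 4 held 1 each. IAA6 (chr1:19673645-19673894, minus strand) is a further Aux/IAA gene. BRU6 (chr4:17579407-17579656, plus strand) is GH3.2, which couples auxin to amino acids. SAUR20 (chr5:5966678-5966927, minus strand) and AT4G34760 (chr4:16582880-16583129, minus strand) belong to the SAUR growth genes.
IAA19: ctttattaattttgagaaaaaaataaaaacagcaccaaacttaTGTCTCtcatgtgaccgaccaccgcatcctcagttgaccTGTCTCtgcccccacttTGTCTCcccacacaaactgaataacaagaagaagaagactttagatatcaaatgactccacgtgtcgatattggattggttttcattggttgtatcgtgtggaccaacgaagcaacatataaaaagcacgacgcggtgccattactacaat
IAA6: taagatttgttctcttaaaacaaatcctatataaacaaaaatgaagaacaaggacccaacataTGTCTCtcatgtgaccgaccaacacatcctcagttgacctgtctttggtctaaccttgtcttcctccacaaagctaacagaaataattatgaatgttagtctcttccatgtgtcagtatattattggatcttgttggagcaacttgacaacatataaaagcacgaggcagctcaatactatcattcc
BRU6: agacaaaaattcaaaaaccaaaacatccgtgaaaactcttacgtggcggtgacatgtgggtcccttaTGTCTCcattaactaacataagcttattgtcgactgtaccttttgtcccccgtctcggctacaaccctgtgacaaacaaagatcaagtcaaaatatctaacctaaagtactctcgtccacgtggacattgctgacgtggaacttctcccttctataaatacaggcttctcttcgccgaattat
SAUR20: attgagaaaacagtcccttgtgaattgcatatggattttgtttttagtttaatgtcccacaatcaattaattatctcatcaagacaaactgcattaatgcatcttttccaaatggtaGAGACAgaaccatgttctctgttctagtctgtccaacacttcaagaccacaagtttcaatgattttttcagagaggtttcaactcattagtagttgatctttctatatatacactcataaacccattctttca
AT4G34760: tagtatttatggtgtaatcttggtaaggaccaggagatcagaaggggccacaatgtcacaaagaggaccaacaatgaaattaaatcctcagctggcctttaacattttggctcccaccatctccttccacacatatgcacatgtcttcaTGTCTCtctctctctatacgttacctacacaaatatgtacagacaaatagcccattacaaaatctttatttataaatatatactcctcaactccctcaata
The windows of IAA19 and IAA6 shared an unbroken run of 23 bases.

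With NAA, 2463 loci were higher (14.2% of those compared) and 2492 were lower (14.4%), 28.6% in either direction. Of these, 1298 were at least 4-fold higher and 829 at least 4-fold lower, and 607 and 233 were past 10-fold. The median log2 fold of all compared loci was -0.08, with quartiles at -0.64 and 0.51. The median absolute log2 fold was 0.58, against 0.32 between the arf7 libraries and 0.25 between the 2 mock libraries. In arf7, 3.81% of loci were higher with NAA and 4.41% lower, 8.22% in all, and 2.77% were higher and 2.04% lower in arf7 mock than in Col-0 mock, 4.81% in all. Of the 2463 loci higher in Col-0, 386 were also higher in arf7, 101 were lower there and 1976 were called neither way. Of the 2492 lower in Col-0, 338 were lower in arf7, 57 higher and 2097 neither. Those differences between the genotypes were not tested.

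**Figure D1:**
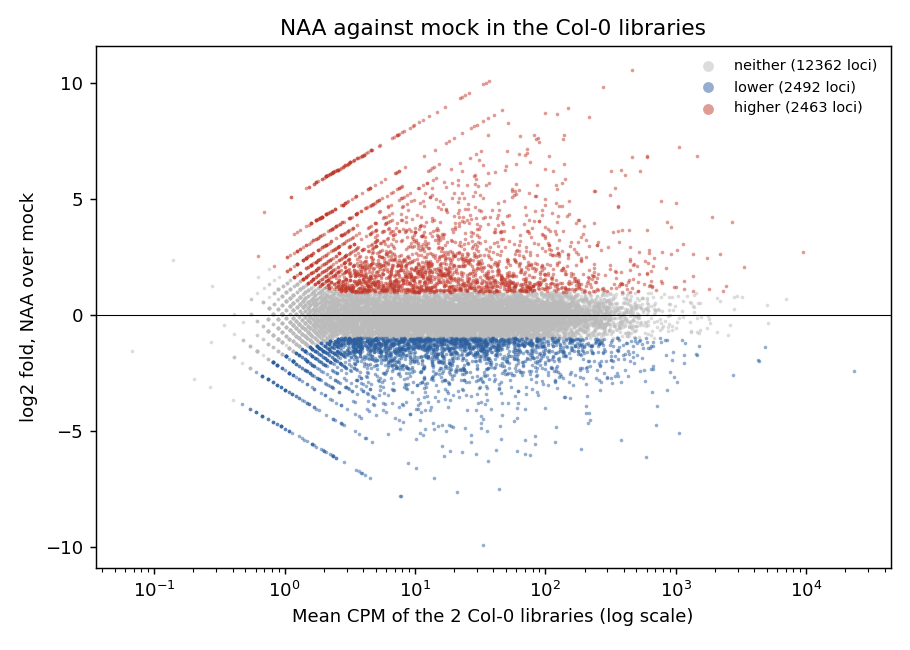
Log2 fold of NAA over mock in Col-0 against the mean CPM of both libraries, 1 point a locus; 2463 loci met the size rule as higher (red) and 2492 as lower (blue). Diagonal streaks at the left are loci with 0 or few counts in 1 library.

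Shares called differed with the length and level of loci. Of the 361 loci with a model under 500 bases 21.1% were higher and 21.3% lower, and of the 1471 loci over 3000 bases 9.65% and 8.02%. Loci of 1 to 3 CPM were higher in 20.7% of cases and lower in 13.1%, those of 30 to 100 CPM in 9.08% and 11.8%, while the 69 loci of at least 1000 CPM were higher in 14.5% and lower in 29.0%. The nuclear chromosomes did not stand apart, with 13.5% to 14.8% of loci higher and 13.7% to 15.4% lower on chromosomes 1 to 5.

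In reads rather than loci, 28.4% of the Col-0 library lay at other loci with NAA than in mock (the summed CPM of all loci that gained, as a percent of the library), against 13.1% between the arf7 libraries and 9.56% between the mocks. Of the gain, 178 loci held 50%, and of the loss 190. The largest single gain was that of TIP2 (AT3G26520, chr3:9722443-9723815), a water channel of the vacuolar membrane. It had 18352 and 117098 counts in the Col-0 mock and NAA libraries and 10978 and 33728 in those of arf7, 6.59-fold higher with NAA in Col-0 (6.49 to 6.69). Both NAA libraries were above their mocks, and the Col-0 NAA library was the highest of the 4.

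The next largest gain was that of RRN26, a mitochondrial ribosomal RNA described below. Cell wall proteins were among the other loci with the 10 largest gains. PRP2, a proline-rich wall protein, had 184 counts in mock and 20816 with NAA, 117-fold higher (101 to 136), against 175 and 190 in arf7. XTH15, which cuts and rejoins xyloglucan, had 104 and 15219 counts, 151-fold higher (125 to 185), against 109 and 194 in arf7. Both were thus low in 3 libraries and high in the Col-0 NAA library. The proline-rich PRP4 was 4.14-fold higher (4.05 to 4.24), the pectin methylesterase-like gene ATPMEPCRD 6.24-fold (6.05 to 6.44) and the extensin EXT3 2.39-fold (2.34 to 2.45). LTP2, a lipid-transfer protein of the outer surface, had 1418 counts in mock, 25777 with NAA and 1603 and 1586 in the arf7 libraries, and DELTA-TIP, a further vacuolar water channel, was 5.43-fold higher (5.25 to 5.62). CAB1, of the light-harvesting antenna, was 1.63-fold above mock (1.61 to 1.66), which does not reach the rule, although its gain in CPM was among the 10 largest.

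PYK10 (AT3G09260, chr3:2840477-2843781), the beta-glucosidase of the ER bodies of roots and seedlings, was the most read locus in mock and made up the largest loss. It had 293803 and 52476 counts in the Col-0 mock and NAA libraries and 232283 and 180191 in those of arf7, 5.42-fold lower with NAA in Col-0 (5.37 to 5.47). THI1, which makes the thiazole part of vitamin B1, had 15191 counts in mock and 425 with NAA, 34.6-fold lower (31.4 to 38.2), against 17915 and 14647 in arf7. PEN3, a transporter of the plasma membrane used in pathogen defence, was 3.86-fold lower (3.78 to 3.93). In all 3 the Col-0 NAA library was the lowest of the 4.

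The remaining large losses were of mixed kinds. The papain-type protease AT4G11320 was 3.98-fold lower (3.90 to 4.05), AT4G23670, annotated in polyketide cyclase and lipid transport, 2.61-fold (2.56 to 2.65), MLP43, a major latex-like protein, 7.38-fold (7.02 to 7.76), the glutathione transferase GSTF8 3.26-fold (3.15 to 3.36) and the pseudogene AT1G79245 3.28-fold (3.18 to 3.39). LHB1B2, an antenna protein, had 34942 counts in Col-0 mock and 5627 with NAA, but also only 6557 in arf7 mock and 10045 in arf7 NAA, so here Col-0 mock was the library that stood out. Reads in sequence shared with its close copies may be missing. POM1, a chitinase-like protein needed for cellulose formation, was 1.82-fold below mock (1.78 to 1.86), short of the rule.

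**Figure D2:**
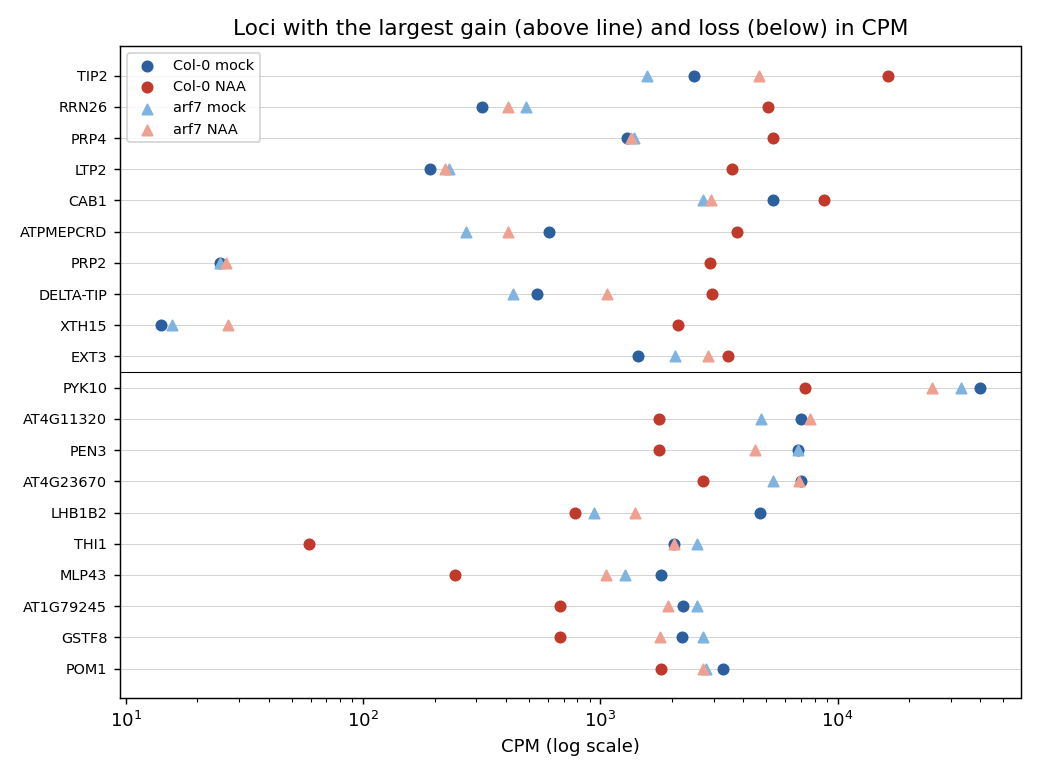
CPM (log axis) in each of the 4 libraries for the 10 loci with the largest gain and the 10 with the largest loss in CPM between Col-0 mock and Col-0 NAA. For PRP2, XTH15, LTP2 and THI1 the arf7 libraries lie close to Col-0 mock, while for TIP2 and DELTA-TIP arf7 NAA lies between Col-0 mock and Col-0 NAA.

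Loci were then grouped into 84 families by the wording of their descriptions, which covered 4378 of the compared loci. Loci whose wording matched no family were left out of these counts, among them the ABC transporter PEN3 and the water channel DELTA-TIP. Family medians of log2 fold were above 0 in 50 families and below 0 in 34, and were at least 1 in 11 and at most -1 in 1. For a number of families the members with a mean of at least 5 CPM over the 4 libraries are given too, since the balance of calls could differ there. Of all 12633 loci with at least 5 CPM, 1489 were higher and 1804 lower. That minimum, too, could be reached through the Col-0 NAA library alone.

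**Figure D3:**
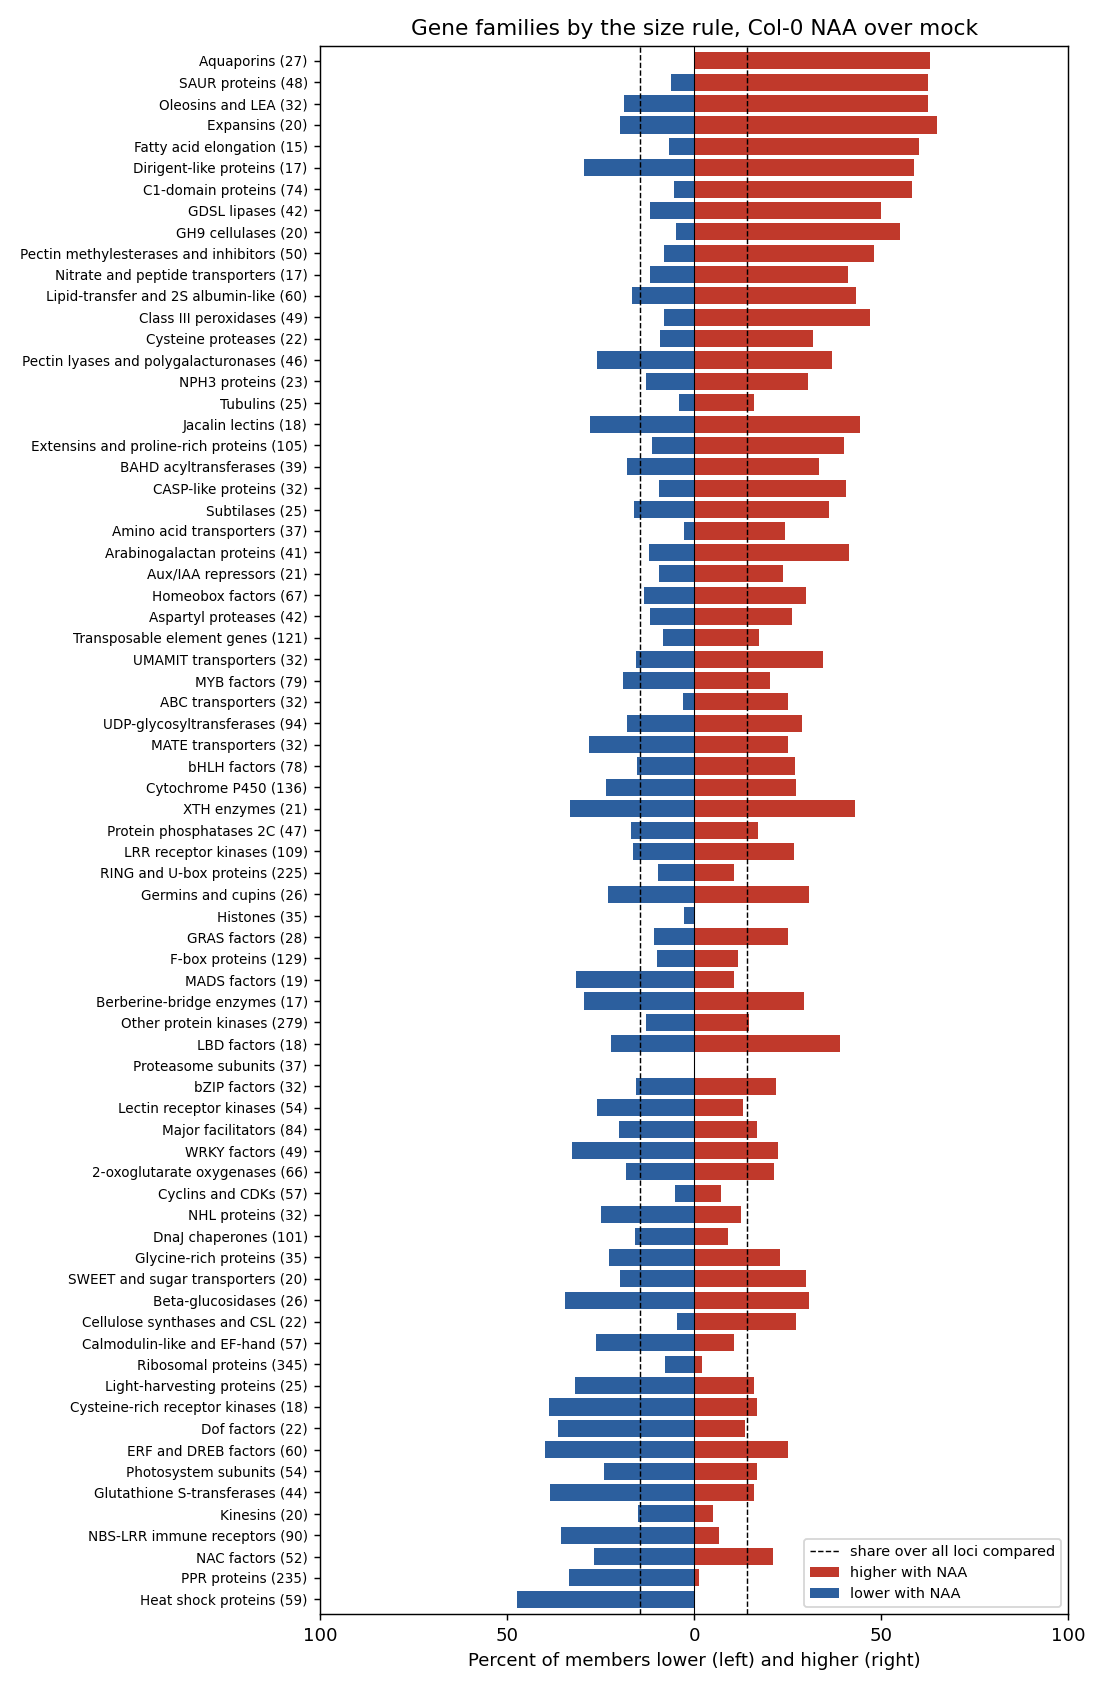
Percent of compared members called higher (right) and lower (left) with NAA in Col-0, for families of at least 15 compared loci (number in parentheses), ordered by the median log2 fold. Dashed lines mark 14.2% higher and 14.4% lower over all loci; aquaporins are at the top and heat shock proteins at the bottom.

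Among direct auxin genes, the GH3 enzymes, which attach amino acids to auxin and jasmonate, had 8 of 11 compared members higher and 0 lower (median log2 fold 1.61). The 17 GH3 loci with a read include 6 below the minimum. BRU6 (GH3.2) had 36 and 1709 counts in the Col-0 mock and NAA libraries and 34 and 152 in those of arf7, 49.0-fold higher in Col-0 (35.3 to 70.2). Both NAA libraries were above both mocks. GH3.1 had 53, 374, 4 and 18 counts in the same order, and WES1 (GH3.5) 2062, 5400, 241 and 687, so that both genes were lower in arf7 mock than in Col-0 mock. DFL1 (GH3.6) had 1861 counts in Col-0 mock and 1815 with NAA, and JAR1, which makes the active jasmonate conjugate, had 7 in each.

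SAUR proteins, small regulators that promote acid growth, had 30 of 48 compared members higher and 3 lower (median 2.03), of 69 with a read. Most were weakly read: with at least 5 CPM 4 of 11 were higher and 2 lower, with a median of 0.38. AT4G38860 had 5 counts in mock and 190 with NAA, 39.2-fold higher (16.5 to 122), against 1 and 4 in arf7. AT4G34760 had 34 and 357, 10.8-fold higher (7.61 to 15.9), against 35 and 62, and SAUR20 had 8 and 93, which is 12-fold higher (5.84 to 28.6), against 4 and 3. In each of these the Col-0 NAA library was the highest. Among those lower, AT4G00880 had 248 counts in mock and 7 with NAA, 34.3-fold lower (16.4 to 86.2), with 226 and 204 in arf7, and AT3G60690 was 2.69-fold lower (2.14 to 3.40). SAUR20 and others have close copies, and reads in shared sequence may be missing from these counts.

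The Aux/IAA repressors were less uniform, with 5 of 21 compared members higher and 2 lower (median 0.36). IAA20 had 165 counts with NAA and 0 without it, with 1 and 2 in arf7. It was 56.8-fold higher with 0 set at 3 counts, and its interval began at 45.7. IAA6 had 12, 125, 5 and 9 counts, 10.8-fold higher (5.94 to 21.4), and AXR3 (IAA17) 814, 2559, 576 and 890, 3.25-fold higher. IAA19, whose promoter held 3 elements, had 348, 755, 193 and 163 counts, 2.24-fold higher. PAP2 (IAA27) went the other way, with 676, 175, 655 and 532 counts, 3.74-fold lower (3.16 to 4.44). IAA1 with 231 and 276 counts and IAA2 with 1895 and 2351, which are often used as auxin markers, did not reach the rule.

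Of the ARF factors 4 of 13 were higher and 2 lower. ARF10 had 184 counts in mock and 584 with NAA, 3.28-fold higher (2.77 to 3.89), and ARF16 138 and 419, 3.13-fold higher (2.58 to 3.83). Both are repressor-type ARFs and both had nearly equal counts in the arf7 pair. ETT, a regulator of gynoecium pattern, was 2.25-fold lower (1.97 to 2.56), and ARF19, the closest relative of ARF7, had 660 and 702 counts in Col-0 and 643 and 709 in arf7. LBD factors, which include direct ARF7 targets of lateral root initiation, had 7 of 18 higher and 4 lower, and 3 and 3 of 9 with at least 5 CPM. LBD29 had 16 and 297 counts, 19.2-fold higher (11.6 to 34.0), LBD18 was 7.38-fold higher (4.61 to 12.4) and LBD11, expressed in the vascular cambium, was 5.26-fold lower (2.95 to 10.1). Of the PIN and PILS carriers of auxin 3 of 12 were higher and 2 lower, from the root carrier PIN2 at 14 and 272 counts to PIN6 at 93 and 6.

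Wall-loosening and wall-building families had shares of higher members above the 14.2% of all loci. Expansins, which loosen walls at low pH, had 13 of 20 higher and 4 lower (median 1.87), and 10 of 17 and 4 with at least 5 CPM. EXPA9 had 73 counts in mock and 1867 with NAA, 26.4-fold higher (20.9 to 33.8), against 162 and 222 in arf7, while EXPA15 had 618 and 103, 5.81-fold lower (4.71 to 7.23). Of 21 XTH enzymes 9 were higher and 7 lower, and their median was 0.12, or -0.36 with at least 5 CPM. XTH17 had 111 and 4806 counts, 44.7-fold higher (37.0 to 54.5), against 38 and 34 in arf7. TCH4 (XTH22), a touch-induced member, had 4643 and 721 counts, 6.24-fold lower (5.77 to 6.76), against 2903 and 5073.

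Pectin-modifying enzymes included some of the largest ratios. Pectin methylesterases and their inhibitors had 24 of 50 higher and 4 lower (median 0.90), and pectin lyases and polygalacturonases 17 of 46 higher and 12 lower, or 12 and 12 of 35 with at least 5 CPM. PGAZAT, a polygalacturonase of organ shedding, had 1 and 664 counts in Col-0 and 3 and 48 in arf7, a ratio of 686 (123 to 27117). PME2 had 2, 742, 4 and 22 counts, a ratio of 383 (106 to 3169). In both the arf7 NAA library was the second highest. The inhibitor-like gene AT5G62360 had 1117, 16, 915 and 415 counts, 67.6-fold lower (41.5 to 119).

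Extensins and other proline-rich proteins, which crosslink in the wall, had 42 of 105 higher and 12 lower, and their summed level was 13678 CPM in mock and 28698 with NAA, against 15504 and 15118 in arf7. EXT12 had 1 count in mock and 519 with NAA, a ratio of 536 (95.7 to 21204), against 7 and 153 in arf7. Arabinogalactan proteins had 17 of 41 higher and 5 lower, with AGP22 at 10 and 1965 counts, 203-fold higher (110 to 424), and AGP4 at 501 and 13864, 28.6-fold higher (26.1 to 31.3). GH9 cellulases had 11 of 20 higher and 1 lower (median 1.13). GH9B15 had 350 counts with NAA and 0 without it, against 4 and 4 in arf7. It was 120-fold higher with 0 set at 3 counts, and its interval began at 97.4. CEL2 had 9 and 692 counts, 79.4-fold higher (41.6 to 174). Of the cellulose synthases and related CSL enzymes 6 of 22 were higher and 1 lower, but their median was -0.33. With at least 5 CPM 3 of 17 were higher and 1 lower (median -0.35). Their summed level was 5780 CPM in mock and 4318 with NAA, against 6368 and 5359 in arf7. CSLB01 had 10 and 526 counts and CESA5, of the primary wall, 1849 and 854.

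**Figure D4:**
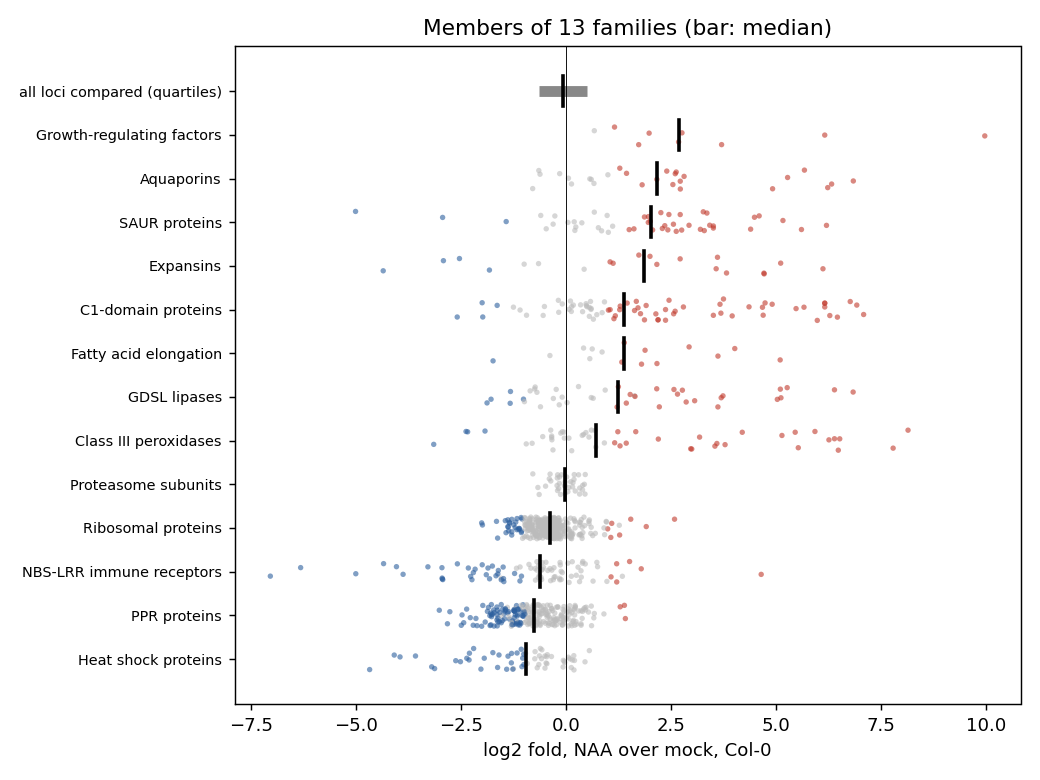
Log2 fold of NAA over mock in Col-0 for each compared member of 13 families (red higher, blue lower, grey neither; vertical jitter only separates points), with the family median as a bar and the quartiles of all loci in grey at the top. Growth-regulating factors, aquaporins and SAUR proteins have medians of 2.68, 2.16 and 2.03, and heat shock and PPR proteins medians of -0.96 and -0.77.

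Families of the Casparian strip and of surface lipids held more higher than lower members. The Casparian strip seals the endodermis, the inner cortical layer, and CASP proteins lay out its domain. CASP-like proteins had 13 of 32 higher and 3 lower. CASP5 had 4 and 2126 counts in Col-0 and 7 and 20 in arf7, 549-fold higher in Col-0 (214 to 2016), and CASP2 had 39, 969, 32 and 61, 25.7-fold higher (18.6 to 36.3). CASP4 had 8, 227, 16 and 6, higher in Col-0 and lower in arf7. Dirigent-like proteins, some of which are needed for lignin in the strip, had 10 of 17 higher and 5 lower (median 1.38). ESB1, the dirigent-like gene on the endodermis marker list, was not among the 17. It had 6 and 2 counts in the Col-0 mock and NAA libraries and 5 and 4 in those of arf7, below the minimum. Class III peroxidases, which oxidise lignin monomers, had 23 of 49 higher and 4 lower (median 0.71). AT5G17820 had 22 and 1987 counts, 93.2-fold higher (61.4 to 149), with 26 and 218 in arf7, and AT1G49570 had 1 and 408, a ratio of 421 (75.2 to 16678), with 0 and 0 in arf7.

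Fatty acid elongation enzymes, which make the long chains of cutin, wax and suberin, had 9 of 15 higher and 1 lower (median 1.39). KCS2 had 106 counts in mock and 1667 with NAA, 16.2-fold higher (13.3 to 19.9), against 137 and 106 in arf7, and KCS19 had 152 and 1809, 12.3-fold higher (10.4 to 14.6), against 183 and 198. KCS12 was the one lower, 3.33-fold (2.93 to 3.79). GDSL lipases had 21 of 42 higher and 5 lower (median 1.23), led by the cutinase CDEF1 with 59, 6554, 43 and 708 counts, 115-fold higher in Col-0 (88.8 to 151). Lipid-transfer and 2S albumin-like proteins had 26 of 60 higher and 10 lower, from AT5G46900 with 4 counts in mock and 3970 with NAA, 1025-fold higher (400 to 3763), to AT4G22485 with 655 and 3, 211-fold lower (72.0 to 1028).

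Oleosins and LEA proteins, known from seeds and drying tissue, split by level. Of 32 compared, 20 were higher and 6 lower with a median of 2.02, but with at least 5 CPM 2 of 11 were higher and 5 lower with a median of -0.98. OLEO3 had 1 count in mock and 261 with NAA, a ratio of 269 (47.9 to 10683), against 2 and 1 in arf7. LEA14 had 3461 and 843, 3.98-fold lower (3.69 to 4.29), and the dehydrin LTI30 1068 and 214, 4.83-fold lower (4.17 to 5.62). The family's summed level was 2088 CPM in mock and 1213 with NAA.

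Aquaporins, the water channels of the vacuolar and plasma membranes, had 17 of 27 compared members higher and 0 lower (median 2.16), and 14 of 20 with at least 5 CPM (median 2.57). Their summed level was 4442 and 27142 CPM in the Col-0 mock and NAA libraries and 3116 and 6779 CPM in those of arf7. In arf7 7 of the 27 were higher and 0 lower. TIP2;3 had 77, 8564, 22 and 140 counts in the same order, 115-fold higher in Col-0 (91.8 to 146), and PIP2;4 had 103, 7499, 64 and 91, 75.2-fold higher (61.9 to 92.2). GAMMA-TIP had 1891, 12840, 1635 and 2278, and PIP2B 2813, 16772, 1900 and 3747. In each of these the Col-0 NAA library was far above the other 3, and arf7 NAA was above arf7 mock. PIP2E at 4900 and 5200 counts and SIP1A at 992 and 1001 were nearly level in Col-0.

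Other carriers were called in both directions. SWEET11, which exports sucrose from phloem parenchyma, had 477 counts in mock and 5837 with NAA, 12.6-fold higher (11.5 to 13.9), against 944 and 2171 in arf7, while SWEET17, a fructose channel of the vacuole, had 1502 and 274, 5.31-fold lower (4.67 to 6.06). The nitrate transporter NRT1.1 had 428 and 5188, 12.5-fold higher (11.3 to 13.8), against 413 and 523. The amino acid carrier AAP1 had 122 and 1440, 12.2-fold higher, against 193 and 214. Of the UMAMIT transporters 11 of 32 were higher and 5 lower, of the amino acid transporters 9 of 37 and 1, and of the ABC transporters 8 of 32 and 1. MATE transporters had 8 of 32 higher and 9 lower, and major facilitators 14 of 84 and 17.

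Among transcription factors, the growth-regulating factors, which promote cell proliferation in young organs, had 8 of 9 compared members higher and 0 lower (median 2.68), and 1 of 9 higher in arf7 (median -0.04). GRF7 had 0 and 482 counts in the Col-0 mock and NAA libraries and 2 and 3 in those of arf7. It was 166-fold higher in Col-0 with 0 set at 3 counts, and its interval began at 134. GRF2 had 58, 383, 69 and 79, 6.82-fold higher (5.16 to 9.15), and GRF1 56, 181, 92 and 60, 3.34-fold higher (2.46 to 4.59). GRF5, with 16 and 25 counts in Col-0, was the one that did not reach the rule. With at least 5 CPM 4 of 4 were higher, but GRF7 reached that minimum through the Col-0 NAA library alone.

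Of 78 bHLH factors 21 were higher and 12 lower, and with at least 5 CPM 11 and 10 of 52. HEC2, of the HECATE group, had 2 counts in mock and 518 with NAA, a ratio of 267 (73.6 to 2214), against 1 and 0 in arf7. Homeobox factors had 20 of 67 higher and 9 lower, from WOX1 at 4 and 235 counts, 60.7-fold higher (23.4 to 224), to WOX4, a factor of the cambium, at 98 and 15, 6.33-fold lower (3.66 to 11.7), and HB-8, of the young vasculature, at 1497 and 512, 2.83-fold lower (2.56 to 3.14). HY5, the bZIP factor of light responses, had 133 and 693 counts, 5.38-fold higher (4.46 to 6.53), against 181 and 202 in arf7.

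Several other factor families had medians below 0, at -0.11 for WRKY, -0.51 for ERF and DREB, -0.50 for Dof and -0.67 for NAC factors. WRKY factors, known from defence, had 11 of 49 higher and 16 lower, and 2 and 15 of 34 with at least 5 CPM. WRKY22 had 705 counts in mock and 113 with NAA, 6.04-fold lower (4.95 to 7.44), against 614 and 617 in arf7. ERF and DREB factors had 15 of 60 higher and 24 lower, and 4 and 17 of 38 with at least 5 CPM, with ABR1 at 537 and 31, 16.8-fold lower (11.7 to 24.9), and 887 and 240 in arf7. Dof factors had 3 of 22 higher and 8 lower. NAC factors had 11 of 52 higher and 14 lower, and 8 and 8 of 27 with at least 5 CPM, among them BRN1, a root cap factor, at 0 and 115 counts.

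Heat shock proteins had 0 of 59 compared members higher and 28 lower with NAA (median -0.96), and 0 higher and 8 lower in arf7 (median -0.24). HSP90.1, a heat-inducible chaperone, had 3033 and 115 counts in the Col-0 mock and NAA libraries and 4153 and 2339 in those of arf7, 25.5-fold lower in Col-0 (21.2 to 31.0). HSP70 (AT3G12580) had 10083, 633, 16392 and 8981, 15.4-fold lower (14.2 to 16.7), and the small heat shock protein AT5G51440 had 411, 23, 748 and 285, 17.3-fold lower (11.4 to 27.6). In each the Col-0 NAA library was the lowest and arf7 NAA lay below arf7 mock. Heat stress factors, which switch such genes on, had 1 of 12 higher and 5 lower in Col-0 and 3 higher and 0 lower in arf7. HSFA1E was 6.37-fold higher (4.58 to 9.04), and HSFA3 had 185 and 62 counts, 2.89-fold lower (2.16 to 3.92). DnaJ co-chaperones were closer to all loci, with 9 of 101 higher and 16 lower.

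The promoters of HSP90.1 (chr5:21352149-21352398, plus strand) and HSP70 (chr3:3993793-3994042, minus strand) are shown with the same window and source as above. Capitals mark the heat shock element core, which is GAA and TTC with 2 bases between them.
HSP90.1: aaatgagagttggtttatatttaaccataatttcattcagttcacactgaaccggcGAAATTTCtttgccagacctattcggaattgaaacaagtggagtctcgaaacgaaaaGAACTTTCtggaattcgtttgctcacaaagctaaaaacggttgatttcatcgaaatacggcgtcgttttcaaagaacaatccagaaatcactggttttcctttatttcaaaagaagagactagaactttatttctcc
HSP70: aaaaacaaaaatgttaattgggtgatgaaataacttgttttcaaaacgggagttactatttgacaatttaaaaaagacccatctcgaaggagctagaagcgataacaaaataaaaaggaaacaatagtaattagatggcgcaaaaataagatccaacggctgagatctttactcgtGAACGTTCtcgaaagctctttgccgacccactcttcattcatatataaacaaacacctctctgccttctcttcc
HSP90.1 held 2 such cores and HSP70 held 1. Both were picked from heat shock genes called lower that held the core, so its presence is not a result.

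Immune receptors of the NBS-LRR class had 6 of 90 higher and 32 lower (median -0.61), while in arf7 3 were higher and 1 lower (median 0.09). Their summed level was 2797 and 1432 CPM in the Col-0 mock and NAA libraries and 2948 and 2958 CPM in those of arf7. RPP4, a receptor for downy mildew, had 532, 6, 439 and 378 counts, 85.9-fold lower in Col-0 (39.2 to 235), and WRR4, a receptor for white rust, had 657, 31, 1058 and 857, 20.5-fold lower (14.3 to 30.5). In both only the Col-0 NAA library was low. NDR1, which acts with a group of these receptors, was 5.97-fold lower (4.40 to 8.25). JAZ repressors of jasmonate signalling had 0 of 9 higher and 4 lower in Col-0 and 0 higher and 6 lower in arf7. JAZ8 had 185, 11, 245 and 80 counts and JAZ5 433, 82, 702 and 329, so for these the NAA library was lower in both genotypes.

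Cysteine-rich receptor kinases had 3 of 18 higher and 7 lower, and 0 and 6 of 12 with at least 5 CPM. CRK10 had 3499 counts in mock and 364 with NAA, 9.31-fold lower (8.36 to 10.4), against 3456 and 2473 in arf7. WAK2, a wall-associated kinase that binds pectin, had 243 and 3 counts, 78.5-fold lower (26.5 to 383), against 158 and 83. LRR receptor kinases had 29 of 109 higher and 18 lower, but 17 and 16 of 85 with at least 5 CPM, where their median was -0.07. Glutathione S-transferases had 7 of 44 higher and 17 lower (median -0.56), and 2 and 16 of 34 with at least 5 CPM, with GSTU12 at 464 and 15 counts, 30-fold lower.

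Proteins described by glucosinolates, the sulphur-rich defence compounds of the cabbage family, or by myrosinase had 4 of 11 higher and 5 lower, and 2 and 2 of 5 with at least 5 CPM. CYP83A1, of aliphatic glucosinolate synthesis and counted among the cytochrome P450 enzymes, had 235 counts in mock and 4 with NAA, 56.9-fold lower (21.9 to 211), and CYP81F4, a further P450 that modifies indole glucosinolates, had 1734 and 37, 45.4-fold lower (32.8 to 64.7), from reads over 16.7% of its model. The myrosinase-binding-like MLP-300B had 8 and 3088, 399-fold higher (202 to 924), against 4 and 134 in arf7. Cytochrome P450 enzymes as a whole had 37 of 136 higher and 32 lower. Beta-glucosidases, the family of PYK10, had 8 of 26 higher and 9 lower. BGLU7 had 205 counts in mock and 1 with NAA, a ratio of 199 (35.2 to 7881), and BGLU22 had 520 and 3855, 7.65-fold higher (6.98 to 8.40), so that members of the family differed in direction. The berberine-bridge enzyme AT5G44440 had 4 counts in mock and 6680 with NAA, 1724-fold higher (673 to 6330), against 1 and 4 in arf7, while AT5G44400 of the same family had 200 and 6, 32.3-fold lower (14.6 to 89.0).

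Nuclear photosynthesis genes and plastid genes differed in direction. Light-harvesting proteins had 4 of 25 higher and 8 lower. Their summed level was 18797 CPM in mock and 15498 with NAA against 6703 and 8044 in arf7, so both Col-0 libraries were above both of arf7, and the median log2 fold of arf7 mock over Col-0 mock was -1.25. The early light-induced ELIP2 had 4 counts in mock and 908 with NAA, 234-fold higher (91.2 to 862), against 15 and 10 in arf7, while CAB3 had 5493 and 869 counts against 1179 and 714 in arf7. Photosystem subunits had 9 of 54 higher and 13 lower. Among members with at least 5 CPM over the Col-0 pair, the 3 with the highest ratio, PSBB, PSAA and PSAB, are encoded in the chloroplast, and the 3 with the lowest, PSAN, PSAO and PSBO2, in the nucleus. Of 65 compared chloroplast loci 34 were higher and 0 lower (median 1.01), and in arf7 1 was higher and 3 lower (median -0.16). Chloroplast reads were 0.274% and 0.413% of the Col-0 mock and NAA libraries and 0.374% and 0.330% of those of arf7, so Col-0 mock had the lowest share. RBCL, the large subunit of Rubisco, had 49 and 178 counts in the Col-0 mock and NAA libraries and 115 and 64 in those of arf7.

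Mitochondrial loci were called in both directions. Of 27 compared 4 were higher and 11 lower (median -0.92), while 0 and 0 were called in arf7. Those higher were 2 of the ribosomal RNAs and 2 open reading frames of unknown function. RRN26 had 2345 and 36643 counts in the Col-0 mock and NAA libraries and 3407 and 2941 in those of arf7, 16.1-fold higher (15.5 to 16.8), and RRN18 had 1873, 11317, 1798 and 1890. ORF107A had 1007, 2232, 1053 and 926 counts and ORF114 9, 24, 11 and 4, while the third ribosomal RNA, RRN5, was among those lower with 20, 7, 19 and 15. ATP9, a subunit of ATP synthase, had 57, 11, 39 and 47, and ATP6-2, a further subunit, 42, 8, 42 and 49. Mitochondrial reads were 0.704% of the Col-0 NAA library and 0.0808% to 0.102% of the other 3, and without ribosomal RNA 0.0358% and 0.0236% to 0.0270%. In each library most of the reads outside ribosomal RNA were those of ORF107A, whose 1007 and 2232 counts in Col-0 carried that rise. Apart from ORF107A and the ribosomal RNAs, ORF114 was the one locus called higher, so the rise did not extend to most mitochondrial loci. Libraries from total RNA can differ in how much organelle RNA they carry, and the part of this in the result was not tested.

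PPR proteins, which bind and process organelle RNA, had 3 of 235 compared members higher and 79 lower (median -0.77), and 1 and 37 of 139 with at least 5 CPM (median -0.53). In arf7 2 were higher and 3 lower (median -0.03). AT1G71460 had 146 and 41 counts in the Col-0 mock and NAA libraries and 117 and 143 in those of arf7, 3.45-fold lower, and DYW1, an RNA-editing factor, had 28, 67, 22 and 35. Ribosomal proteins had 7 of 345 higher and 27 lower, fewer than all loci in each direction, with a median of -0.38. Of the 345, 327 had a nuclear promoter read. The rest include the chloroplast genes RPL32, RPS12B and RPL20, each called higher and counted among the chloroplast loci above. Proteasome subunits had 0 of 37 higher and 0 lower (median -0.02, or 0.03 with TMM, a scaling that trims extreme loci) and histones 0 of 35 and 1. Cyclins and CDKs had 4 of 57 higher and 3 lower, with CYCD3;1, a cyclin of cell cycle entry, at 833 and 257 counts, 3.14-fold lower (2.73 to 3.62), and SIM, an inhibitor of cell division, at 547 and 1391, 2.63-fold higher (2.38 to 2.90). Tubulins had 4 of 25 higher and 1 lower, with TUB1 at 84 and 3381 counts, 41.6-fold higher (33.5 to 52.2), against 72 and 126 in arf7.

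C1-domain proteins, a plant family with zinc-binding domains and few known functions, had 43 of 74 compared members higher and 4 lower (median 1.37), of 130 with a read. With at least 5 CPM 8 of 24 were higher and 1 lower (median 0.60). AT2G19660 had 3 and 458 counts in the Col-0 mock and NAA libraries and 0 and 17 in those of arf7, a ratio of 158 in Col-0 (53.6 to 767). Transposable element genes had 21 of 121 higher and 10 lower. AT1G20390 had 127, 4415, 388 and 432 counts, 35.9-fold higher (30.1 to 43.2), and AT4G16870 had 638, 22, 831 and 458, 28.1-fold lower (18.4 to 45.1).

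Of 17220 neighbour pairs both loci were called in 1566, and 62.6% of these had the same direction, with higher and lower calls about equally many over all loci. The share was 75.7% of the 144 such pairs within 1 family and 61.3% of the other 1422. AT4G16870 lies next to RPP4, which was lower too. The 4 adjacent lipid-transfer-like loci AT4G22505 to AT4G22520 had 630 counts in mock and 0 with NAA, and 4 adjacent cysteine-rich receptor kinase loci, CRK10 to CRK14, had 4834 and 528. Going the other way, the SAUR loci AT1G29430 to AT1G29460 had 44 and 247 counts, and the C1-domain loci AT1G55380 to AT1G55430 had 15 and 129. Reads shared by copies within such clusters may be missing, and the counting strand is not stated.

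Markers of other cell types and organs moved with NAA, and in bulk samples more cells of a type and more RNA per cell cannot be told apart. The 11 root hair genes summed to 3.38 CPM in Col-0 mock and 159 in Col-0 NAA, and to 2.14 and 59.4 in arf7. All 8 that reached the minimum were higher, which the minimum favours, since in mock 2 of the 11 were at 0 and none exceeded 9 counts. PRP3 had 9 and 431 counts in the Col-0 mock and NAA libraries and 5 and 157 in those of arf7, and LRX1 had 3, 194, 2 and 88. Root tip and cap genes summed to 5.27 and 65.4 CPM in Col-0, yet WOX5, of the root stem cell centre, had 15 and 13 counts and SMB, of the root cap, had 0 and 2.

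Endodermis genes summed to 216 and 1315 CPM in Col-0 and to 210 and 242 in arf7, with 6 of 9 compared members higher. Within that list CASP1 had 105 and 2083 counts and PER64 40 and 1716, while the regulators SCR with 606 and 1071, SHR with 552 and 474 and MYB36 with 215 and 251 did not reach the rule. Epidermis genes summed to 483 and 2735 CPM, carried by PDF1 with 737 and 11541 counts and FDH with 1996 and 6719. ATML1 and PDF2, which control the epidermis, did not reach the rule. Stomatal genes summed to 7.29 and 61.7 CPM, with 3 of 4 compared members higher. Most of the sum with NAA came from KAT1, a guard cell potassium channel, at 20 and 340 counts, while FAMA with 22 and 40 did not reach the rule. Founder cell genes of lateral roots summed to 31.1 and 105 CPM, and 2 of 4 compared members, LBD18 and LBD29, were higher. LBD16 with 126 and 229 counts and PUCHI with 56 and 73 did not reach the rule. Below the minimum, GATA23 had 0 and 4 counts and LBD33 12 and 7.

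The other lists were close to level or lower with NAA, apart from the weakly read seed genes. Xylem genes summed to 443 and 261 CPM and phloem genes to 485 and 261, with SEOR1, a sieve element protein, at 2568 and 626 counts and SUC2, of companion cells, at 1017 and 1238. Shoot apex genes summed to 193 and 218 CPM, nearly all from KNAT1 with 1387 and 1493 counts, while STM had 33 and 67, 2.10-fold higher (1.36 to 3.28), and WUS and CLV3 had at most 1 count in each library. Seed genes summed to 1.22 and 4.46 CPM, with the storage proteins CRA1 and CRC at 0 in all 4 libraries. The part of cell and tissue content in the family results was not tested.

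**Figure D5:**
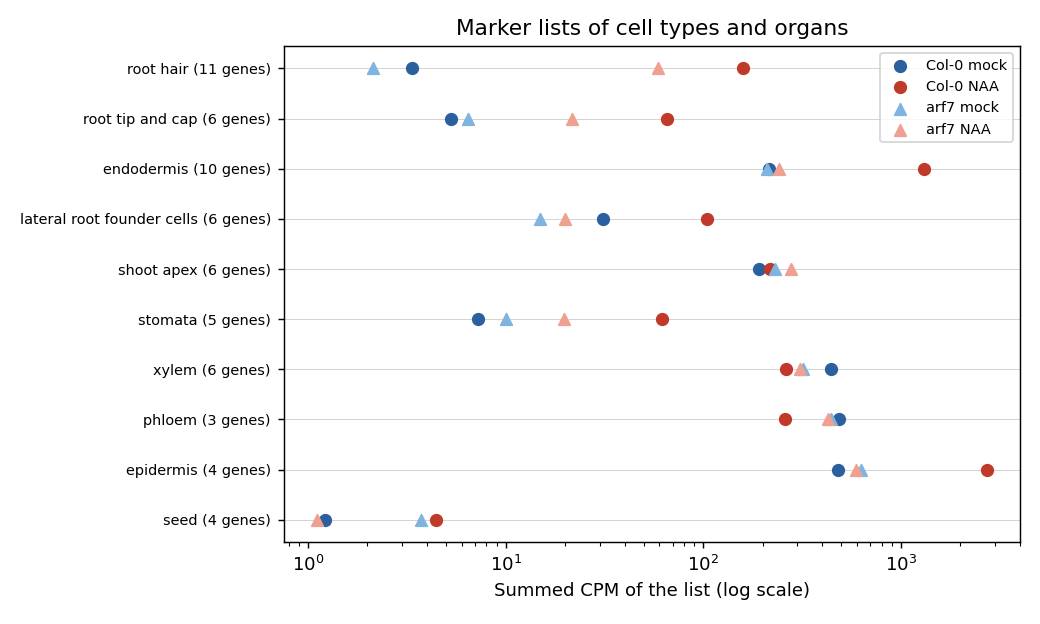
Summed CPM (log axis) of fixed marker lists in the 4 libraries; blue is mock, red is NAA, circles are Col-0 and triangles arf7. Col-0 NAA lies highest for root hair, root tip, endodermis, founder cell, stomatal, epidermis and seed lists and lowest for xylem and phloem.

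Promoters of all compared loci were searched on both strands over the same 250 bases. TGTCTC was present in 12.2% of 17224 promoters, in 14.3% of those of loci higher with NAA and in 12.1% of those lower. It was found in 5 of 11 GH3 promoters, 5 of 9 of growth-regulating factors, 7 of 21 of Aux/IAA genes, 10 of 48 of SAUR genes and 0 of 27 of aquaporins. TGTCGG, a related element, was present in 4.90% of all, 3.59% of higher and 6.29% of lower promoters. The heat shock core GAANNTTC was in 9.84% of all, 13.3% of lower and 8.08% of higher promoters, and in 22 of 59 of heat shock proteins. TTGAC, the core of the W-box bound by WRKY factors, was in 44.8% of all, 49.6% of lower and 43.7% of higher promoters. The telo-box core AAACCCT was in 1723 of all 17224 promoters, and in 130 of 327 of ribosomal proteins. It was in 9.15% of lower and 5.48% of higher promoters, both below the 11.1% of those called neither way. CACGTG was in 8.96% of all and 10.5% of higher promoters, and GCCGCC in 2.45% and 1.69%. A match is a description of these letters, not a bound site.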

How the data were processed

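RNA-seq of hypocotyls was analysed from 4 tables, 1 per library. Per the labels' protocols, the libraries were made from total RNA by random priming and read by Illumina sequencing. The authors deposited, per the file headers, a count of uniquely assigned reads for each transcript model, with the percent of the model covered and an RPKM value; the counts were used here, the percent covered only to mark thinly covered models, and the deposited RPKM not at all. The authors' tables of comparisons, with 16 columns of values per sample, were left out. Per the submitters' processing notes the build was TAIR 10; which aligner was run is not given in the sources used here.

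Counts were summed per locus, scaled to the library total and compared as a ratio with its exact interval (Clopper-Pearson, conditional on the summed count) (Python 3.11.15, scipy 1.17.1, pandas 2.3.3). A locus was called at 2-fold or more if the 95% interval left out 1, given a mean of at least 1 CPM. Log2 folds were taken after adding 0.5 to each count, and 0 counts were set at 3 where a fold needed a count above 0. The rule was run on simulated counts with counting error only, which cannot show how it behaves under the spread between plants or preparations. TMM (edgeR 4.0.16) and DESeq2 1.42.0 size factors in R 4.3.3 were alternatives. Reads in sequence shared by models or near-identical copies may be missing, and counting by strand is not stated.

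Families were key words of the description column, first match counting, each with at least 5 compared loci. The members and lists were chosen with earlier results of these data known. Named loci are the 10 largest gains and losses in CPM, up to 3 higher and 3 lower loci a family with at least 5 CPM over the Col-0 pair, fixed markers, loci with a printed promoter, and loci above 10 CPM with 0 counts in 1 Col-0 library. Loci named outside that rule, such as level members of a family, ARF7 and ARF19, further GH3, Aux/IAA, JAZ and aquaporin genes and organelle genes, were chosen after their values were seen. Symbols of the fixed markers are those of the marker lists, and the others are those of RefSeq. Where RefSeq had none, the first symbol of the description column or the locus tag was used. Promoters were read from the TAIR 10.1 genome by the coordinates of the files, since 99.98% of 23505 nuclear loci overlapped the RefSeq gene of the same locus tag; 17224 were read, and the sequence of 1 is not reported here.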

Additional observations from a re-analysis of the deposited data

Results flagged for a closer look

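A call in opposite directions in the 2 genotypes marked 8 of the named loci; each direction rests on 1 library a side, the values are the log2 fold with NAA in Col-0 minus that in arf7, and the difference was not tested. CASP4, of the Casparian strip domain, had 8 counts in Col-0 mock and 227 with NAA but 16 and 6 in arf7, a difference of 6.17. The subtilase AT5G45650 had 41 and 407 against 74 and 37, a difference of 4.37, and the homeobox gene HB-7 12 and 80 against 67 and 33, a difference of 3.79. AT3G08660, of the NPH3 family, had 16 and 57 against 16 and 4, a difference of 3.76. The oligopeptide transporter OPT1 had 15 and 67 against 35 and 17, a difference of 3.23. CYCP4;1, a cyclin, had 36 and 145 against 38 and 17, a difference of 3.22, and the laccase-like AT5G01050 25 and 54 against 67 and 30, a difference of 2.33. HIS1-3, a drought-linked linker histone, went the other way, with 89 and 29 against 42 and 173, a difference of -3.54, from reads over 13.6% of its model.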

How the results depend on the processing

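The counts of loci higher and lower with NAA stayed within 1.5 times of 2463 and 2492 under TMM (2558 and 2370), DESeq2 size factors (2639 and 2244), no minimum (2922 and 2570), a minimum on the 2 Col-0 libraries (2626 and 2442), transcript models as deposited (2478 and 2527) and loci with 1 listed model (2252 and 2213). With a minimum mean of 5 CPM 1489 were higher and 1804 lower, and with a fold of at least 3 1677 were higher and 1282 lower. These have fewer loci or a stricter fold by construction. The median of all loci was -0.08, -0.04 with TMM and -0.01 with DESeq2 size factors. Under TMM 5 and under DESeq2 size factors 8 of 443 named loci no longer met the rule, and none changed sign. Of 84 family medians, 3 changed sign with TMM, 6 with DESeq2 size factors (none of these past 0.07 in size as reported), 10 at 5 CPM, 11 with no minimum, 3 with the minimum on Col-0, 3 with transcript models and 6 with 1 listed model. Among medians of at least 1 in size these were oleosins and LEA (-0.98 at a minimum of 5 CPM) and terpene synthases (0.046 with no minimum). With 0 counts set at 3 counts no family median moved by 1.5 times. No paired analysis was possible because each group is 1 library. No library could be left out, so every value depends on the Col-0 NAA library. Weakly read loci are limited by depth.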
